A study of Homo sapiens with 16 samples.

Results

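Clone H3 was compared with clone E11, both of them clones with introduced tristetraprolin (TTP) made from the human cell line MDA-MB-231, over all 14857 genes of the deposited table. MDA-MB-231 is an established line from a breast cancer without estrogen receptor, of the mesenchymal-like basal B class. Each clone was sequenced as 4 cultures, so 8 of the 16 libraries of the series enter the comparison. The other 8 come from empty-vector clones A and B (EV_A and EV_B), and they share the fit and serve as a reference level. All 4 clones descend from MDA-MB-231 cells with a stable tet-off system, in which an introduced gene is transcribed when doxycycline is absent, and all were kept in G418 and hygromycin B. Doxycycline at 2 µg/mL is stated for the TTP cells, and these drugs were removed for 24 h or longer before an experiment. Each TTP line is 1 clone, so a p-value sets the difference against how far parallel cultures vary, not against how far independently made clones vary. The clones were recognised by the library names, since 7 of the 8 TTP libraries have titles that read EV beside the clone name E11 or H3.

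TTP, encoded by ZFP36, is a zinc finger protein that binds AU-rich elements in the 3′ untranslated region (3′ UTR) of mRNAs and recruits the deadenylation machinery, after which the mRNA is decapped and degraded. Its best known targets encode cytokines, growth factors and immediate early proteins. Loss of TTP has been described in aggressive breast tumours. The question put to the data was how far a pair of clones with unequal ZFP36 levels differ from each other.

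Values are normalized counts, in which the reads of each library were scaled by a single size factor. The 8 TTP libraries held 14380767 to 20278033 reads on the listed genes. ESR1 and PGR, which encode the estrogen and progesterone receptors, are not among the listed genes. All 9 markers of the basal B class of breast lines were measured, with summed levels of 100487 to 103103 in E11 and 97324 to 102323 in H3, and of these CAV1 was lower in H3 by 0.22 and CAV2 by 0.17 on the log2 scale. The call of CAV2 was lost without replicate 2, 3 or 4 of E11 or replicate 1 or 3 of H3 (adjusted p between 0.0522 and 0.0735). It was also lost with values adjusted for transcript GC content, as described below (adjusted p = 0.175). Replicate 3 of H3 stood apart from the rest of its clone. The log2 distance of its genes from the mean of the other 3 libraries had an SD of 0.215, against 0.0916 to 0.139 in the other 7 TTP libraries, so results are given with and without it. A log2 difference is H3 minus E11 on log2(value + 1), an error after ± is a standard error for log2 differences and an SD over 4 libraries for levels, and an adjusted p is from limma with Benjamini-Hochberg adjustment over all genes, with 0.05 as the threshold.

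The unequal level of ZFP36 is part of why the clones were set against each other, so it is described with no test. ZFP36 (chromosome 19, 39406813 to 39409412, GRCh38) stood at 10941, 10160.1, 10322 and 10505 normalized counts in the 4 libraries of E11 and at 14986, 14097, 13337 and 15041 in those of H3. Every H3 library lay above every E11 library, and replicate 3 was the lowest of H3. The mean of H3 was 37.0% above that of E11 (1.37 times, log2 difference 0.45, or 0.49 without replicate 3 of H3). Without introduced TTP the levels were 259 ± 26.3 in EV_A and 222 ± 8.80 in EV_B, so that E11 lay 43.6 and H3 59.8 times above them, which checks the library names. Among the paralogs, which bind similar elements, ZFP36L1 was at 2239.8 ± 53.3 in E11 and 2295 ± 166 in H3 and did not pass (log2 difference 0.03, adjusted p = 0.696). ZFP36L2 passed by a small margin, with 795, 735, 739.9 and 699 in E11 and 810.5, 849, 783 and 880.1 in H3 (log2 difference 0.16, adjusted p = 0.0303), but its libraries overlapped and the call was lost without replicate 2, 3 or 4 of E11 or replicate 2 or 4 of H3, with adjusted p between 0.0689 and 0.117. The call was also lost with GC-adjusted values (adjusted p = 0.0636) and with the 8 TTP libraries alone (0.0666).

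A list of mRNAs that TTP is reported to destabilise had 33 measured members. In H3, 9 of them were higher and 1 was lower, H3 being the clone with more ZFP36 mRNA (27.3% higher and 3.03% lower, beside 6.35% higher and 5.32% lower over all genes). Without replicate 3 of H3 the counts were 8 and 2, beside 8.11% higher and 7.11% lower over all genes. The median log2 difference of the list was 0.13, 0.07 without replicate 3 and 0.06 over members with a mean of at least 50, beside -0.00 over all genes. The 4 members with the largest differences, CXCR4, CXCL8, LIF and PLAU, each carry the heptamer core TATTTAT of the AU-rich element in the annotated 3′ UTR. So do most of the list: it stood in 29 of the 32 members with an annotated 3′ UTR, 10 of the 10 that passed and 19 of the 22 that did not, beside 32.7% of all genes. The first such site of each is shown 5′ to 3′ on the transcribed strand as DNA letters, with the heptamer in capitals, because TTP is known to bind elements of this kind.
CXCR4 (chr2:136114699-136114723, minus strand, GRCh38): taattgactTATTTATataaatttt
CXCL8 (chr4:73742666-73742690, plus strand): gtaaagtatTATTTATttgaatcta
LIF (chr22:30242574-30242598, minus strand): catgatttcTATTTATtatgatatc
PLAU (chr10:73917410-73917434, plus strand): tacactgaaTATTTATatttcacta
These windows lie in the 3′ UTRs of GENCODE 29 transcripts. The UTR of CXCR4 holds 1 such heptamer, that of CXCL8 4, that of LIF 5 and that of PLAU 2.

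LIF, a cytokine of the interleukin 6 family, stood at 288, 286, 296 and 282 in E11 and 345, 381, 422 and 373 in H3. All H3 libraries were above all E11 libraries (log2 difference 0.40 ± 0.059, adjusted p = 1.8e-05), and both clones lay below the empty-vector level of 885 ± 39.0 in EV_A and 823 ± 29.3 in EV_B. PLAU, the urokinase plasminogen activator, stood at 3407, 3577, 3519 and 3595 in E11 and 4375, 4315, 4064 and 4293 in H3 (log2 difference 0.27 ± 0.033, adjusted p = 4.18e-07), again without overlap and below the empty-vector clones at 5790.2 ± 179.6 in EV_A and 6080.2 ± 143 in EV_B. The chemokine receptor CXCR4 was low in all libraries, at 8.78, 9.81, 10.7 and 11.1 in E11 and 24.2, 30.9, 20.9 and 17.2 in H3. Unlike LIF and PLAU, it had lower means in the empty-vector clones than in both TTP clones, at 3.97 ± 1.35 in EV_A and 6.86 ± 4.01 in EV_B. Its libraries did not overlap, yet its call (log2 difference 1.11, adjusted p = 0.0455) was lost on leaving out any of the 8 libraries, with adjusted p between 0.0504 and 0.141. At a pseudocount of 0.1 the call was lost as well (adjusted p = 0.0669). The chemokine CXCL8 (interleukin 8) stood at 18.8, 20.6, 18.8 and 19.4 in E11 and 26.2, 27.5, 50.9 and 28.0 in H3, replicate 3 being far above the others. Without that library the log2 difference fell from 0.69 (adjusted p = 0.0396) to 0.47 (adjusted p = 0.17). Its call was also lost without any 1 of the E11 libraries, with adjusted p between 0.067 and 0.0859. With the 8 TTP libraries alone the call was lost as well (adjusted p = 0.0698). The empty-vector means of CXCL8 were 39.0 ± 9.45 in EV_A and 30.4 ± 2.83 in EV_B. They lay above the E11 mean of 19.4 and on either side of the H3 mean of 33.1.

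Genes of the machinery around TTP passed in both directions. Of 28 other AU-rich element binding proteins, 1 was higher and 3 were lower (3.57% and 10.7%, beside 6.35% and 5.32% over all genes), and 1 and 5 without replicate 3 of H3. CELF2, a splicing and decay factor, stood at 761 ± 34.5 in E11 and 611 ± 46.5 in H3 (log2 difference -0.32, adjusted p = 0.000633), and FXR2, a paralog of the fragile X protein, at 1919.7 ± 34.5 and 2161 ± 47.5 (0.17, adjusted p = 0.000854). Of 41 genes of deadenylation, decapping and the exosome, 3 were higher and 3 lower (7.32% and 7.32%), near the shares over all genes. The decapping enhancer EDC3 was higher in H3 by 0.23 and the exosome subunit EXOSC4 by 0.28, while BTG2, an antiproliferative protein that binds the deadenylase, fell from 187 ± 5.22 in E11 to 136 ± 22.2 in H3 (log2 difference -0.47, adjusted p = 0.00408).

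Genes of NF-kB signalling and inflammation were among the higher ones. Of 31 measured, 8 were higher in H3 and 0 lower (25.8% and 0%, beside 6.35% and 5.32% over all genes), and 9 and 0 without replicate 3, with a median log2 difference of 0.04. This list shares CXCL8 with the reported TTP targets above, so the counts of the lists are not separate. The cytokine IL32 stood at 186, 189, 224 and 201 in E11 and 315, 326, 341 and 301 in H3, and the adhesion molecule ICAM1 at 568, 548, 553 and 543 and 789, 820.2, 694 and 747. In both, all H3 libraries were above all E11 libraries and the empty-vector clones were lower still, at 72.3 ± 6.78 in EV_A and 59.8 ± 8.83 in EV_B for IL32 and 399 ± 33.3 in EV_A and 296 ± 31.8 in EV_B for ICAM1. TRAF1, an adaptor of TNF receptors, was higher by 0.42 ± 0.0785 (adjusted p = 0.000449). Of 46 interferon-stimulated genes IRF1, OAS3 and IFIT5 passed, 2 higher and 1 lower (4.35% and 2.17%, below the shares over all genes), and 5 and 0 without replicate 3. IRF1 was the largest of these, at 543 ± 28.6 in E11 and 714 ± 66.6 in H3 (log2 difference 0.39, adjusted p = 0.0017). The call of IFIT5, the lower of these 3 (log2 difference -0.18), was lost without replicate 1, 3 or 4 of E11 or replicate 1, 2 or 3 of H3 (adjusted p between 0.0501 and 0.115). It was also lost with GC-adjusted values (adjusted p = 0.174) and with the 8 TTP libraries alone (0.054). Immediate early genes passed in both directions, 7 higher and 5 lower of 34 (20.6% and 14.7%). Among them the transcriptional repressor KLF10 rose from 437 ± 34.7 in E11 to 601 ± 25.8 in H3 (log2 difference 0.46) and the matricellular CTGF fell from 21652 ± 163 to 18165 ± 1708 (-0.26).

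Over all genes, 1735 passed the threshold between H3 and E11 (11.7% of those tested), 944 higher (6.35%) and 791 lower (5.32%). Without replicate 3 of H3 the count was 2261 (15.2%), with 1205 higher (8.11%) and 1056 lower (7.11%). Without replicate 2 of E11 it fell to 631 higher and 487 lower, and without replicate 3 of E11 to 652 and 522. The same sign held in both fits for 1507 genes (10.1%), 228 passed only with all libraries, 754 only without replicate 3, and 0 passed with opposite signs. Most differences were small: 108 genes passed with a log2 difference of at least 1 (0.727%), 63 higher (0.424%) and 45 lower (0.303%), of which 90 were protein-coding. The libraries of the clones did not overlap for 2391 genes (16.1%). Between the clones without introduced TTP, EV_B and EV_A, 5468 genes (36.8%) passed. These pairs share no library, and 892 genes passed in both, which is 51.4% of the genes of H3 against E11 and 16.3% of those of EV_B against EV_A. Of the 892, 610 had the same sign. Across all genes, which are not independent, the log2 differences of the pairs had a Pearson correlation of 0.106 and a Spearman correlation of 0.133.

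**Figure D1:**
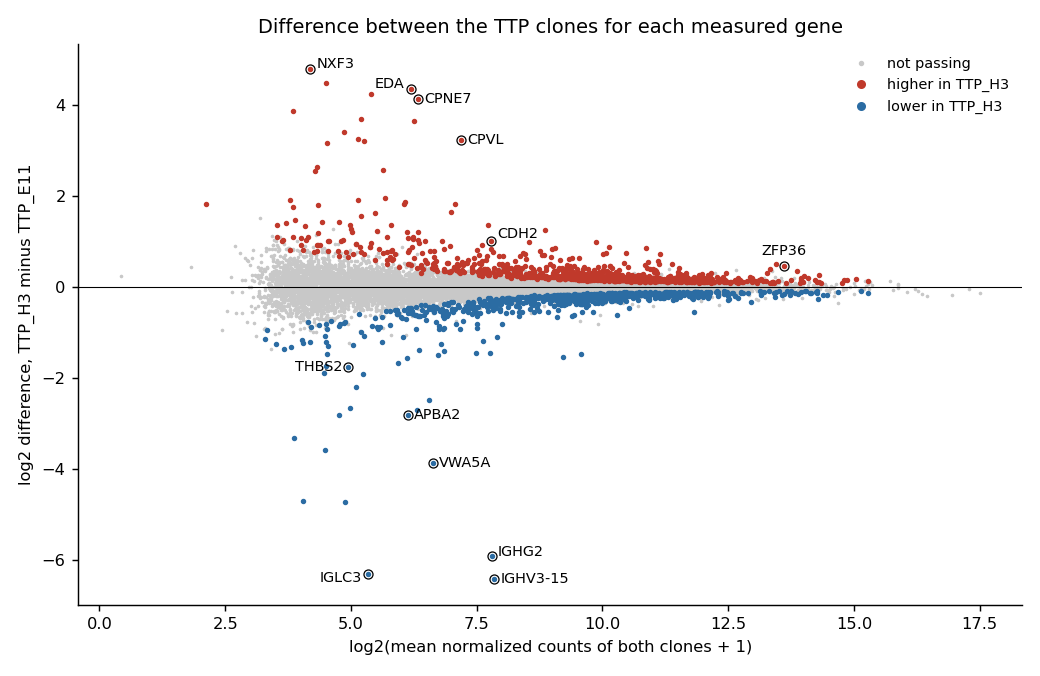
Log2 difference of H3 minus E11 (vertical axis) against the log2 mean level of both clones (horizontal axis) for 14857 genes, with the 944 genes that passed as higher in H3 in red and the 791 lower in blue. ZFP36 lies at 0.45 among the abundant genes, while IGHV3-15 lies below -6 and EDA and CPNE7 above 4.

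Most of the genes with the largest excess in H3 stood at a few normalized counts in E11. NXF3 (chromosome X, 103075810 to 103093125), of the nuclear RNA export factor family, had 137 reads over the 4 libraries of H3 and 1 read over those of E11, which after scaling is a ratio of 139 (exact 95% interval from counting error alone, 24.5 to 5514.7). In H3 it stood at 40.4, 35.5, 19.0 and 42.4, replicate 3 being the lowest, and the empty-vector clones stood between the TTP clones, at 16.7 ± 2.66 in EV_A and 9.51 ± 3.50 in EV_B. EDA (chromosome X, 69616067 to 70039469), the ligand ectodysplasin A of the TNF family, stood at 5.02, 5.89, 8.04 and 4.61 in E11 and 147, 132, 149.6 and 124 in H3 (log2 difference 4.36 ± 0.395, adjusted p = 1.18e-09). Here H3 stood alone, because the empty-vector clones were at 1.77 ± 1.42 in EV_A and 1.76 ± 0.923 in EV_B. Of the 6 measured genes of the ectodysplasin pathway, EDA was the 1 that was higher, and 1 other was lower (16.7% and 16.7%, beside 6.35% and 5.32% over all genes).

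CPNE7 (chromosome 16, 89575768 to 89597246), a calcium-dependent membrane-binding copine, showed another order of the clones. It stood at 11.3, 3.92, 10.7 and 6.45 in E11 and 136, 142, 191 and 135 in H3, while the empty-vector level was 113 ± 20.3 in EV_A and 56.2 ± 15.3 in EV_B, so that E11 was the clone below the rest. ZNF334, a zinc finger gene, had the same order, with 10.0, 16.7, 11.6 and 15.7 in E11, 79.7, 69.9, 99.8 and 86.7 in H3 and 60.6 ± 2.16 in EV_A and 49.9 ± 9.06 in EV_B. The membrane mucin MUC4 was also lowest in E11 and highest in H3, at 6.27, 5.89, 1.79 and 2.77 in E11, 64.6, 59.6, 32.9 and 49.6 in H3 and 16.6 ± 3.60 in EV_A and 11.7 ± 2.93 in EV_B. TRIM61 and the processed pseudogene AC106872.5, which lies within it on chromosome 4, also stood lowest in E11, with means of 1.15 and 1.10 in E11 against 25.6 and 42.2 in H3. Reads of this pair cannot be assigned with certainty.

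A pair of neighbours on chromosome 7 rose together in H3. CPVL (chromosome 7, 28995231 to 29195451), a serine carboxypeptidase, stood at 25.1, 24.5, 34.9 and 24.9 in E11 and 246, 239, 314 and 252 in H3, and CHN2 (chromosome 7, 29146569 to 29514328), the Rac-regulating beta-chimaerin, at 5.02, 3.92, 6.26 and 8.30 and 54.5, 61.9, 59.9 and 75.8. Their annotated ends overlap and strand was not stated for the counting, so their reads may be shared in part. The empty-vector clones had 3.79 ± 0.764 in EV_A and 6.86 ± 3.60 in EV_B for CPVL and 5.85 ± 3.53 in EV_A and 5.03 ± 1.98 in EV_B for CHN2. GRAMD1B, a sterol carrier of membrane contact sites, was at 3.30 ± 1.33 in E11 and 79.4 ± 22.5 in H3. TESPA1, known from thymocyte signalling, was at 4.50 ± 1.88 and 66.6 ± 9.25, and the cyclic GMP phosphodiesterase PDE9A at 6.73 ± 2.53 and 68.0 ± 7.33. C1orf115 and the Wnt antagonist DACT2 were higher by 3.18 and 2.65. The antisense gene AC025569.1, for which reads of the other strand cannot be told apart, was higher by 3.65.

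The largest deficits of H3 were of immunoglobulin segments. IGHV3-15 (chromosome 14, 106153624 to 106154163), a heavy chain variable segment, stood at 443, 463, 452 and 459 in E11 and 4.04, 4.58, 3.99 and 4.51 in H3 (log2 difference -6.43 ± 0.0979, adjusted p = 2.94e-31). The empty-vector clones had 316 ± 22.8 in EV_A and 359 ± 14.6 in EV_B, so that H3 was the 1 clone near 0. The pseudogenes IGHV1-14 and IGHVIII-13-1, its nearest measured neighbours on chromosome 14, followed the same order. IGHV1-14 stood at 55.3 ± 5.03 in E11, 1.32 ± 1.04 in H3 and 43.6 ± 7.08 in EV_A and 57.1 ± 2.21 in EV_B, and IGHVIII-13-1 had 120 reads in E11 and 1 in H3 (scaled ratio 119, 95% counting interval 20.9 to 4722.8).

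The constant segments IGHG2 and IGLC3 had another order, with EV_B beside H3. IGHG2 (chromosome 14, 105639559 to 105644790) stood at 420.0, 496, 398 and 435 in E11, 5.05, 9.16, 4.99 and 6.32 in H3, 512 ± 32.4 in EV_A and 5.80 ± 0.378 in EV_B. IGLC3 had 321 reads in E11 and 0 in H3. With 3 reads assumed over H3 as a floor, the scaled ratio of E11 to H3 was 105.7. The exact counting interval of this ratio had a lower limit of 85.5 and no upper limit. The means of IGLC3 were 89.8 in EV_A and 0.794 in EV_B. By contrast IGKC was higher in H3, at 403 ± 22.9 against 251 ± 18.8 in E11. IGHG1 and IGHG3, chosen after their values were seen, stood at 636 ± 69.5 and 43.8 ± 9.52 in E11 and 604 ± 19.6 and 38.5 ± 8.17 in H3 and did not pass (adjusted p = 0.571 and 0.635). Of 25 markers of B and plasma cells 7 were measured, 5 of them immunoglobulin genes. MS4A1, CD79A, JCHAIN and PAX5 are not among the listed genes. Immunoglobulin genes resemble each other, so the segment each read came from is uncertain.

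Among the other genes lower in H3, VWA5A (chromosome 11, 124115362 to 124147721), which has a von Willebrand factor A domain, stood at 187, 171, 195 and 175 in E11 and 5.05, 9.16, 22.9 and 15.3 in H3 (log2 difference -3.87 ± 0.367, adjusted p = 2.98e-09). APBA2, an adaptor of the amyloid precursor protein, stood at 113, 105, 122 and 135 in E11 and 17.2, 12.6, 38.9 and 7.22 in H3. In both, replicate 3 was the highest of H3, and the empty-vector clones were near 0, at 1.85 ± 1.18 in EV_A and 1.01 ± 0.0792 in EV_B for VWA5A and 2.64 ± 1.37 in EV_A and 2.22 ± 2.44 in EV_B for APBA2, so that H3 lay between them and E11. The same order held for the transcription factor NFATC4, at 58.5 ± 7.70 in E11, 15.2 ± 4.75 in H3 and 0.740 ± 0.517 in EV_A and 0.275 ± 0.550 in EV_B, and for ADAMTS1, a secreted metalloproteinase, at 51.8 ± 5.77, 9.04 ± 7.47 and 0.518 ± 0.614 in EV_A and 3.82 ± 1.60 in EV_B. APBA2 and NFATC4 did not pass at a pseudocount of 0.1 (adjusted p = 0.0633 and 0.109).

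GMFG, an actin regulator, fell from 46.1 ± 9.88 in E11 to 5.91 ± 2.13 in H3, and the Ras-like GTPase DIRAS1 from 55.4 ± 9.36 to 11.1 ± 0.867. GLB1L2 stood at 145, 116, 132 and 147 in E11 and 17.2, 17.2, 36.9 and 13.5 in H3, replicate 3 being nearest to E11. The noncoding AL033504.1 and the KRAB-box gene KRBOX1 were lower by 3.59 and 3.33. Within the span of KRBOX1 lies ZNF662, which was higher by 2.56 and was chosen after its values were seen. VPS9D1-AS1, an antisense gene within VPS9D1, was lower by 2.48.

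**Figure D2:**
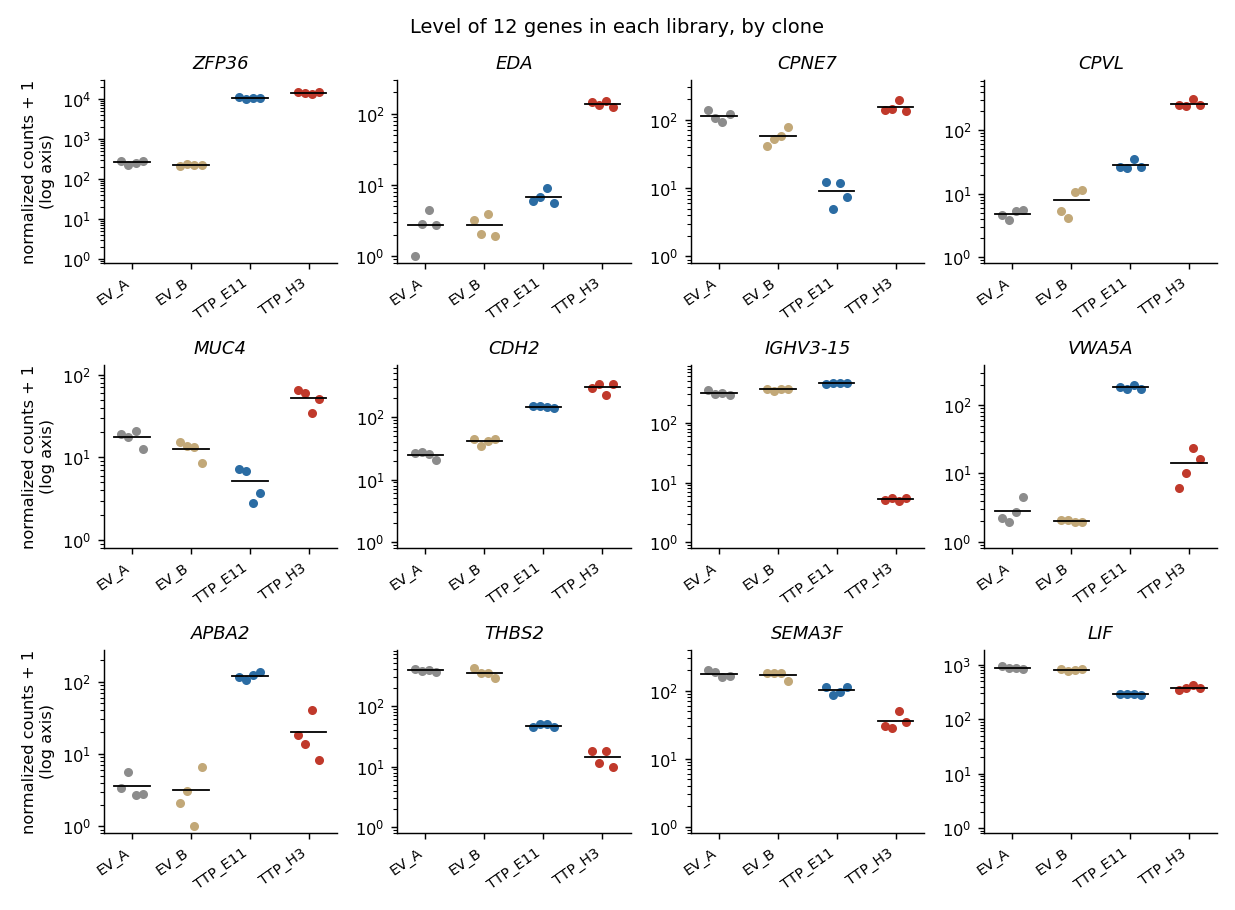
Normalized counts plus 1 on a log axis in each of the 16 libraries for 12 genes, with 1 point per library and a bar at the mean of each clone. EDA is high in H3 alone, CPNE7 is low in E11 alone, IGHV3-15 is low in H3 alone, and VWA5A and APBA2 are highest in E11 with H3 between E11 and the empty-vector clones.

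Set against the empty-vector clones, the differences fell on both sides. Of the 944 genes higher in H3, both EV means lay nearer to E11 for 418 and nearer to H3 for 372, and the EV clones split for 154. Of the 791 lower genes the numbers were 305, 345 and 141. Among the differences of at least 1 on the log2 scale, H3 was the clone farther from both EV clones for 35 of 63 higher and 14 of 45 lower genes, and E11 for 21 and 24.

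Cell adhesion genes held several of the larger differences. Of 31 measured mesenchymal genes, 4 were higher and 3 lower in H3 (12.9% and 9.68%, beside 6.35% and 5.32% over all genes), and 10 and 7 without replicate 3. CDH2 (N-cadherin) stood at 149, 149, 141 and 138 in E11 and 291, 329.9, 223 and 339 in H3 (log2 difference 1.01 ± 0.14, adjusted p = 5.46e-06). CDH11 (osteoblast cadherin) stood at 648, 569.9, 635 and 598 and 1389.8, 1448, 755 and 1414, and the metastasis-associated calcium-binding S100A4 at 1538, 1667, 1779 and 1812 and 3150.1, 2966, 2213 and 3001. In all 3 genes replicate 3 was the H3 library nearest to E11 but still above every E11 library. The empty-vector clones were lower for CDH2, at 24.0 ± 3.18 in EV_A and 40.2 ± 4.36 in EV_B, and higher for S100A4, at 8842 ± 311 in EV_A and 4931 ± 622 in EV_B. The log2 differences of CDH2, CDH11 and S100A4 without replicate 3 were 1.14, 1.21 and 0.84, against 1.01, 0.98 and 0.73 with it.

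Of 22 epithelial junction genes 1 was higher and 3 were lower (4.55% and 13.6%). The higher one was ESRP2, an epithelial regulator of splicing, at 302, 275, 248 and 268 in E11 and 653, 711, 547 and 692 in H3, with 367 ± 36.8 in EV_A and 344 ± 56.4 in EV_B. The desmosomal cadherin DSG2 was lower by 0.18 on the log2 scale (adjusted p = 0.00187). Of 30 cadherins and protocadherins 2 were higher, CDH2 and CDH11, and 6 lower, 5 of them protocadherins of the cluster on chromosome 5 (6.67% and 20%, beside 6.35% and 5.32% over all genes). PCDHB13 stood at 143, 163, 119.7 and 141 in E11 and 92.9, 74.5, 93.8 and 90.3 in H3 (log2 difference -0.68, adjusted p = 0.000228). The 3 measured mucins had higher means in H3, and MUC4 and MUC6 passed, MUC6 at 8.69 ± 3.48 in E11 and 23.4 ± 8.11 in H3.

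Of 40 collagens, laminins and matricellular proteins 3 were higher and 5 lower (7.5% and 12.5%, beside 6.35% and 5.32% over all genes), and 9 and 5 without replicate 3 of H3. THBS2, the antiangiogenic thrombospondin 2, stood at 43.9, 49.0, 49.1 and 43.3 in E11 and 17.2, 10.3, 17.0 and 9.03 in H3 (log2 difference -1.77 ± 0.154, adjusted p = 6.71e-10), both far below 381 ± 17.0 in EV_A and 346 ± 53.2 in EV_B. Laminin alpha 4 (LAMA4) stood at 88.7 ± 7.15 in E11 and 40.7 ± 4.32 in H3, while the proteoglycan SPOCK1 rose from 5.63 ± 2.81 to 21.1 ± 8.74. Of 31 proteases of the matrix and their inhibitors 5 were higher and 4 lower (16.1% and 12.9%). Beside PLAU, the tissue plasminogen activator PLAT rose, from 1444, 1619, 1575 and 1569 in E11 to 2206, 2136, 2730.2 and 2083 in H3, and the inhibitor TIMP3 was higher by 0.34. ADAM8 fell from 663 ± 27.5 to 422 ± 32.1.

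Among 45 semaphorins, plexins, ephrins and related guidance genes 3 were higher and 7 lower (6.67% and 15.6%, beside 6.35% and 5.32% over all genes), and 7 and 6 without replicate 3. SEMA3F, a secreted inhibitor of angiogenesis, stood at 112, 87.3, 96.5 and 114 in E11 and 29.3, 27.5, 49.9 and 33.4 in H3 (log2 difference -1.55 ± 0.147, adjusted p = 3.41e-09), below 177 ± 18.4 in EV_A and 172 ± 22.3 in EV_B. The transmembrane SEMA6B fell from 832 ± 60.5 to 547 ± 102, SEMA5A rose from 62.6 ± 10.1 to 107 ± 22.5 and the receptor ROBO4 from 365 ± 28.7 to 658 ± 139.7.

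Cell cycle genes moved by small amounts. Of 44 genes of G2 and mitosis, 10 were higher and 1 lower in H3 (22.7% and 2.27%, beside 6.35% and 5.32% over all genes), and 11 and 2 without replicate 3, with a median log2 difference of 0.05, or 0.01 without replicate 3. In EV_B against EV_A 20 of these 44 were higher and 2 lower, beside 3003 and 2465 over all genes. CDC20, the activator of the anaphase-promoting complex, stood at 4990.2, 5083, 5005 and 4981 in E11 and 6375, 6464, 5973 and 6164 in H3 without overlap (log2 difference 0.32, adjusted p = 1.37e-08). The mitotic kinesins KIF4A and KIF2C were higher by 0.38 and 0.21, and KIF15 was lower by 0.24. Of 49 genes of G1/S and DNA replication 3 were higher and 8 lower in H3 (6.12% and 16.3%), and 3 and 13 without replicate 3. In EV_B against EV_A 33 of these 49 were higher and 4 lower. The replication factor GINS2 was lower in H3 by 0.28 and the ribonucleotide reductase subunit RRM2 higher by 0.24. Of 17 replication-dependent histone genes, whose sequences are alike, 4 were higher and 0 lower in H3 (23.5% and 0%), with a median of 0.31. HIST1H2BD stood at 125, 152, 145 and 149 in E11 and 201, 208, 188 and 213 in H3 (log2 difference 0.50, adjusted p = 0.000227), below 279 ± 25.3 in EV_A and 293 ± 27.5 in EV_B.

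Of 42 genes of hypoxia and glycolysis 5 were higher and 5 lower (11.9% and 11.9%, beside 6.35% and 5.32% over all genes), led by the glycolytic kinase PGK1, at 8851, 9254, 9189 and 9373 in E11 and 12937, 12634, 13816 and 12923 in H3 (log2 difference 0.51 ± 0.0352, adjusted p = 3.04e-12). The vasodilator peptide ADM was higher by 0.28 and the MYC antagonist MXI1 lower by 0.48. Of 31 genes of cholesterol synthesis and uptake 1 was higher and 2 were lower (3.23% and 6.45%). Of 5 metallothioneins, which bind zinc and copper, 3 were higher (60%), among them MT2A at 8626, 9009, 8987 and 9092 in E11 and 11642, 11108, 12388 and 11684 in H3. In EV_B against EV_A 3 of the 5 were higher and 0 lower. Of 76 cytosolic ribosomal proteins 2 were higher and 11 lower in H3 (2.63% and 14.5%), and 2 and 19 without replicate 3. For EV_B against EV_A these counts were 69 and 0. The median log2 difference of H3 minus E11 was -0.04, and RPL3 fell by 0.17 in H3. Of the 13 mitochondrially encoded genes 0 passed with limma, 1 passed with edgeR and 1 with DESeq2, 4 had an unadjusted limma p under 0.05, and 4 were lower without replicate 3.

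The marker lists of other blood cells, fibroblasts, endothelium and embryonic kidney held 3 to 5 measured genes each (over all genes 11.7% passed), and their part in the other results was not tested. Of 5 measured markers of other blood cells 0 passed with limma, edgeR or DESeq2 and 0 had an unadjusted limma p under 0.05, with summed levels of 128 to 151 in E11 and 129 to 192 in H3, and CD3E, CD2 and PTPRC are not among the listed genes. Of 5 fibroblast markers 0 passed with limma, edgeR or DESeq2, 1 had an unadjusted limma p under 0.05, and 2 were higher without replicate 3 of H3, with sums of 495 to 687 and 421 to 732. Of 3 endothelial markers ROBO4 was higher and KDR, a VEGF receptor, lower by 0.55, with sums of 715 to 810.2 and 892 to 1303, which did not overlap, and PECAM1, CDH5 and VWF are not listed. Of 4 markers of the embryonic kidney lineage WT1, at 28.8, 26.5, 37.5 and 15.7 in E11 and 67.6, 66.4, 49.9 and 65.9 in H3, and PAX8 were higher, with sums of 1156 to 1354 and 1349 to 1416. The call of PAX8 was lost without replicate 1, 2 or 4 of either clone (adjusted p between 0.0588 and 0.184) and with edgeR (0.0691) or DESeq2 (0.0924). It was also lost with GC-adjusted values (adjusted p = 0.0927) and with the 8 TTP libraries alone (0.103). In RNA of whole cultures, fewer cells of a type and less RNA per cell cannot be told apart.

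Some of the genes that passed were neighbours on a chromosome. Median log2 differences were taken over runs of 25 consecutive measured genes. Over 14232 such runs, which overlap each other, these medians were between -0.29 and 0.49, and the middle of the distribution (1st to 99th percentile) was between -0.12 and 0.12, with 76 runs over 0.2 in size. The regions below were picked for their medians, so their values are a description with no test. The highest run lay on the long arm of X, from HDAC8 to HDX, and another of the 5 most extreme runs lay just before it, from ZC3H12B to TAF1. From the start of the one to the end of the other (chromosome X, 65366638 to 84502479), 57 genes were measured. Of these 35 were higher in H3 and 0 lower, 53 had a difference above 0, and the median was 0.37 (33, 0 and 0.36 without replicate 3). Of the 417 other genes of X 20 were higher and 23 lower, with a median of -0.02.

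The genes on either side did not share the excess. The 25 genes before it had a median of -0.08 and the 25 after it of 0.01. Against the mean of the empty-vector clones the median of the stretch was 0.51 in H3 and 0.12 in E11, and EV_B differed from EV_A by a median of -0.05. Against the same mean the 25 genes before the stretch stood at 0.23 in H3 and 0.24 in E11. The 25 genes after it stood at 0.24 in H3 and 0.25 in E11. The stretch includes members of several lists: PGK1, KIF4A and the ribosomal protein RPS4X (log2 difference 0.26), as well as EDA. Chosen after their values were seen, the RNA-binding NONO stood at 13468, 13178, 13016 and 13048 in E11 and 16911, 16732, 16918 and 17057 in H3, the chromatin remodeller ATRX at 1735, 1872, 1856 and 1651 and 2512, 2257, 2242 and 2410.2, the ubiquitin ligase RLIM at 1632, 1654, 1563 and 1564 and 2196, 2113, 2187 and 2118, and PBDC1 at 1028, 1051, 1071 and 1059.9 and 1721, 1659, 1941 and 1734. In these 4 genes all H3 libraries were above all E11 libraries, and the ratios of means were between 1.28 and 1.68.

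The start of chromosome 7 was also higher in H3. Of the 16 measured genes from the end of the short arm to AC091729.3 (135853 to 1165267), 13 were higher and 0 lower, with a median of 0.60 (12, 0 and 0.58 without replicate 3). In the next 25 genes 3 were higher and 6 lower, with a median of -0.02. Here E11 was the clone apart from the rest, with a median of -0.72 against the empty-vector clones, while H3 was at -0.08, and EV_B differed from EV_A by -0.28. COX19, a copper chaperone of the mitochondrion chosen after its values were seen, stood at 120.4, 134, 137 and 138 in E11, 253, 281, 232 and 250.0 in H3 and 197 ± 16.2 in EV_A and 206 ± 16.7 in EV_B. SUN1 of the nuclear envelope, the growth factor PDGFA and the secretory kinase FAM20C, also chosen after their values were seen, were higher by 0.50, 0.77 and 0.62.

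The end of chromosome 22 was lower in H3. From PPP6R2 to the last measured gene (50343304 to 50801309), all 15 genes had a difference below 0 and 7 passed as lower, with a median of -0.37 (9 and -0.48 without replicate 3). The 25 genes before it had a median of -0.10 with 1 lower. Against the empty-vector clones H3 was at -0.67 and E11 at -0.10, and EV_B differed from EV_A by -0.15. SHANK3, a synaptic scaffold, stood at 148, 141, 150.1 and 143 in E11 and 63.6, 82.5, 113 and 56.0 in H3, and the arylsulfatase ARSA at 147, 122, 157 and 122 and 77.7, 52.7, 108 and 68.6, both chosen after their values were seen. In each, replicate 3 was the H3 library nearest to E11. The fifth run, from HARS to PCDHGC5 on chromosome 5 (140673904 to 141512981), held the protocadherin cluster, with 5 of 25 genes lower, 0 higher and a median of -0.29, beside -0.31 for EV_B minus EV_A in the same run. Whether copy number or another property of these stretches differs between the clones was not tested.

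**Figure D3:**
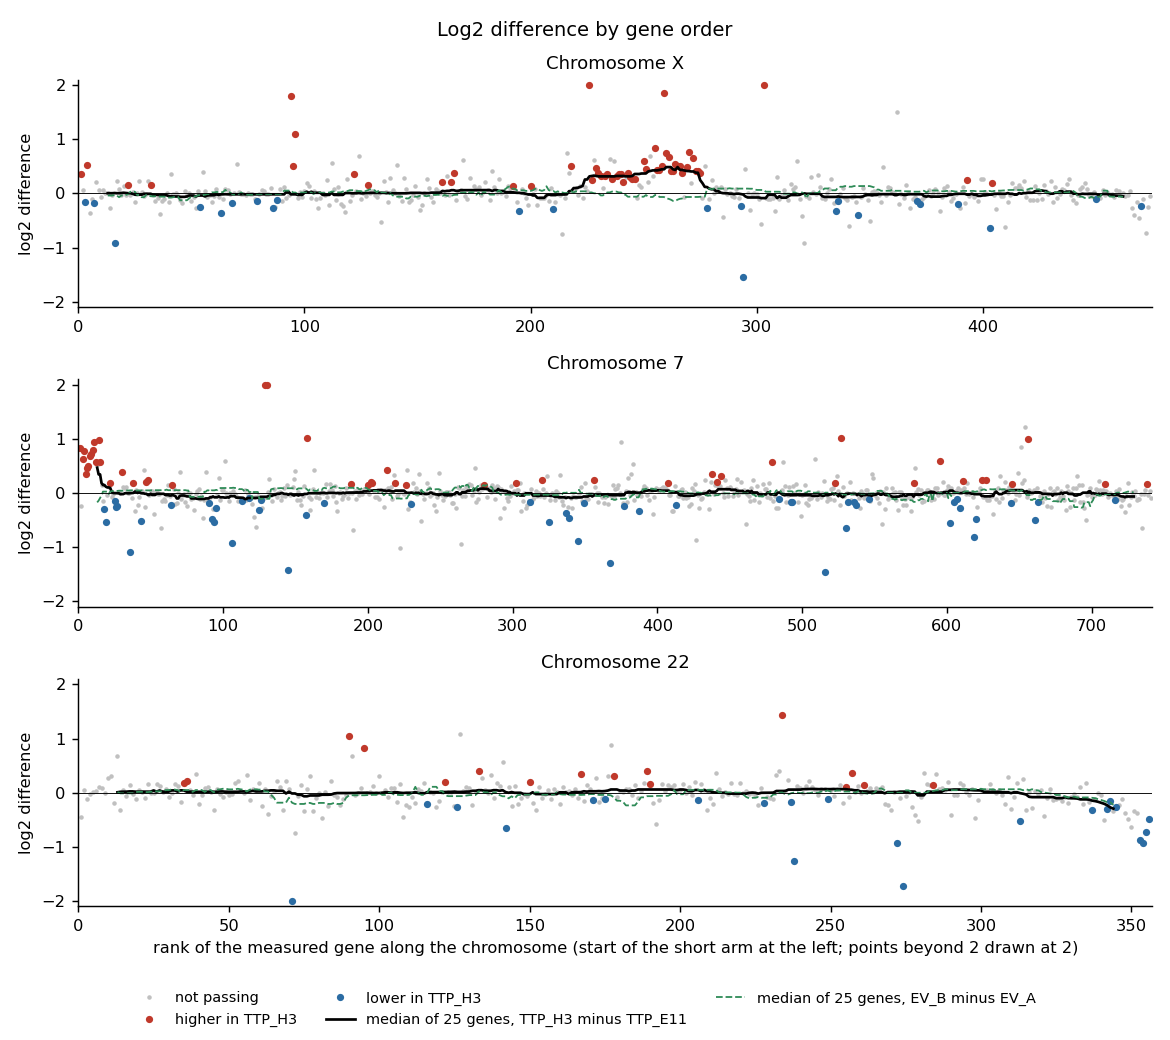
Log2 difference of H3 minus E11 (vertical axis, drawn at 2 where larger) for each measured gene by its rank along chromosomes X, 7 and 22, with genes that passed in red (higher) and blue (lower), the running median of 25 genes in black and that of EV_B minus EV_A dashed in green. The black line rises in the middle of X, starts high on chromosome 7 and ends low on chromosome 22, at medians of 0.49, 0.47 and -0.29 in the runs described, where EV_B minus EV_A stood at -0.09, -0.17 and -0.23.

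Replicate 3 of H3 differed from the other 3 libraries of its clone in named genes. Among 10831 genes with a mean of at least 100 over the 8 TTP libraries, 316 lay at least 0.5 on the log2 scale from the mean of the other 3, 97 above and 219 below. For 242 of the 316 the deviation was toward the mean of E11. Deviation and direction to E11 both start from the mean of the other 3 libraries, so part of this agreement is built in. It also counts genes that went beyond the mean of E11, and no share for another library is given beside it. The 5 genes farthest below were the noncoding AC245041.1 and AC245041.2, the hair keratin KRT81, the collagen VI chain COL6A3 and the hyaluronan-degrading CEMIP. COL6A3 stood at 482, 448, 90.8 and 431 in H3 and 289.6, 314, 313 and 306 in E11, and CEMIP at 978, 965, 203 and 937 and 654, 622, 619 and 592, so that replicate 3 lay below both clones. KRT81 stood at 370.4, 434, 63.8 and 368 in H3 and AC245041.1 at 203, 202, 19.0 and 176.

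The 5 genes farthest above were PDE1C, the B-cell lectin CD22, KISS1, the actin-bundling LCP1 and the glycosyltransferase GALNT14. PDE1C, a calmodulin-dependent phosphodiesterase, stood at 40.4, 33.2, 177 and 45.1 in H3 and 145, 169.7, 160.0 and 145 in E11, and LCP1 at 534, 524, 1351 and 549.7 and 1220.0, 1195, 1159 and 1189, replicate 3 lying above every E11 library in both. The call of PDE1C (log2 difference -1.41, adjusted p = 0.0193, or -1.95 and 0.00019 without replicate 3) was lost without replicate 2 or 3 of E11 or replicate 1, 2 or 4 of H3, with adjusted p between 0.0542 and 0.0829, and with edgeR (0.104) or DESeq2 (0.219). It was also lost with the 8 TTP libraries alone (adjusted p = 0.172) and at a pseudocount of 0.1 (0.211). KISS1, the kisspeptin precursor, stood at 1686, 1619.8, 4275 and 1666 in H3 and 1481, 1452, 1364 and 1488 in E11. With replicate 3 left out, COL6A3 and CEMIP passed as higher in H3, by 0.57 (adjusted p = 0.000357) and 0.63 (adjusted p = 1.42e-13), against -0.01 and 0.07 with it. LCP1 passed as lower, with a log2 difference of -1.15 (adjusted p = 7.15e-07) against -0.82 (adjusted p = 0.0736), and CD22 turned from 0.07 to -0.31 (adjusted p = 0.0227). AC245041.1 turned from -0.33 to 0.49 (adjusted p = 0.000503). Of the genes that most separate the clones, IGHV3-15, IGHG2, IGLC3 and EDA stood in this library at 3.99, 4.99, 0 and 149.6, close to the other 3. Others lay apart from the mean of the other 3, NXF3 by -1.02, VWA5A by 1.26, APBA2 by 1.66, KRBOX1 by 1.97 and AL033504.1 by 2.11 on the log2 scale, each toward E11, and GRAMD1B by 0.72, away from E11.

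**Figure D4:**
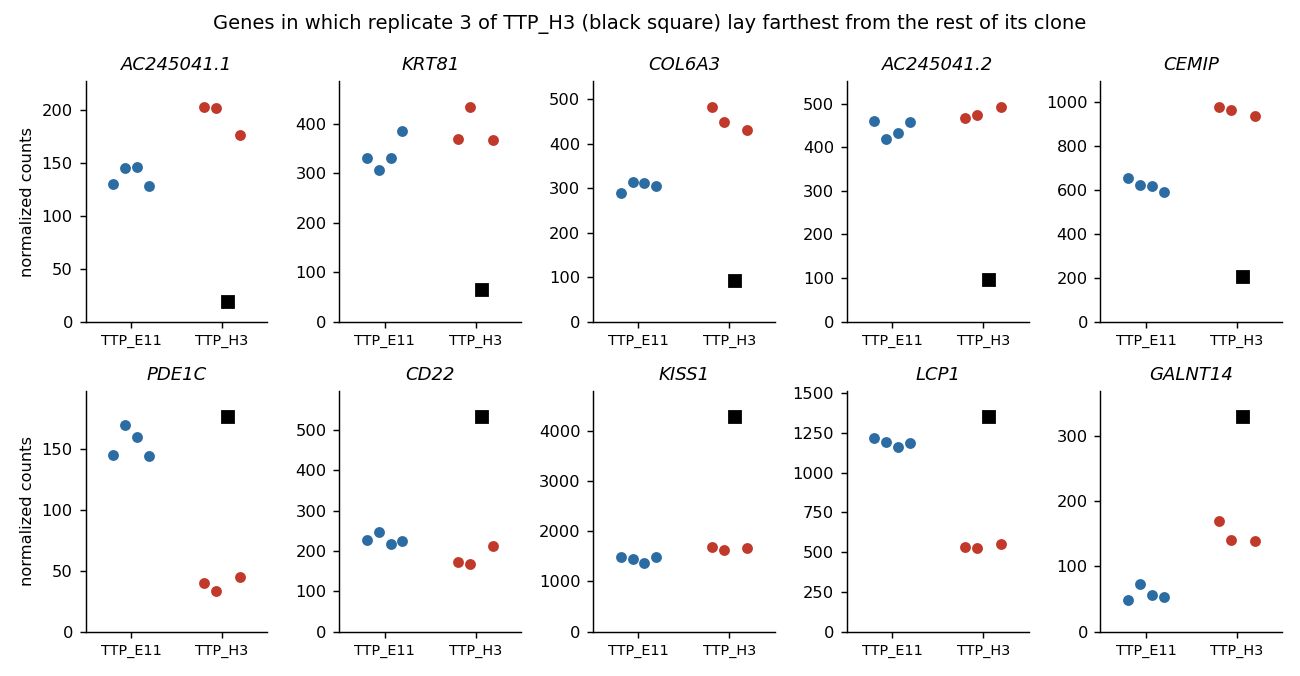
Normalized counts of the 10 genes in which replicate 3 of H3 lay farthest from the mean of the other 3 libraries, with E11 in blue, H3 in red and replicate 3 of H3 as a black square. In the upper row it lies below all 7 other libraries, as for COL6A3 at 90.8, and in the lower row above them, as for KISS1 at 4275.

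The AU-rich elements of the genes that passed were counted in the annotated 3′ UTRs, given for 12485 genes. The pentamer ATTTA, which is contained in TATTTAT, was searched on the transcribed strand and stood in 60.3% of the genes higher in H3, 77.8% of those lower, 69.8% of those that did not pass and 69.6% of all. TATTTAT stood in 26.9%, 35.6%, 33.0% and 32.7%. Those lower in H3 also had longer 3′ UTRs, with a median of 1430 bases against 991.5 for those higher, and transcripts with less G and C, with a median of 45.3% against 55.4%. Per kb of 3′ UTR, ATTTA stood at 1.60 in the higher, 2.63 in the lower and 2.30 in the genes that did not pass. TATTTAT stood at 0.302, 0.328 and 0.329 per kb, so the lower genes had no excess of the heptamer by length. Genes lower in H3, the clone with more ZFP36, thus carried the pentamer more often, together with longer 3′ UTRs and a lower GC content.

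The trend with GC content differed in size between libraries. The genes were split into 5 equal bins by the GC content of their transcript. In the bin of lowest GC 66 were higher and 238 lower in H3, and in the highest 324 and 123. Replicate 2 of H3 had the steepest trend, the median of the highest bin lying 0.151 above that of the lowest, and replicate 2 of E11 the most opposite, at -0.0857, with the other 6 libraries between -0.0685 and 0.0316. Without replicate 2 of H3 the share with ATTTA was 61.1% among the higher and 72.5% among the lower genes. The median GC content was then 53.5% and 47.3%, beside 55.4% and 45.3% with all libraries, so a gap remained without the library of steepest trend. When the GC trend of each library was subtracted, a choice made after seeing the data, 1523 genes passed (10.3%), 828 higher (5.57%) and 695 lower (4.68%), and ATTTA stood in 67.9% of the higher and 63.0% of the lower genes. TATTTAT stood in 33.3% and 24.0% of them. The order of these shares was the reverse of that with deposited values. With GC-adjusted values the reported TTP targets counted 8 higher and 1 lower, against 9 and 1 with deposited values. The NF-kB genes counted 6 and 0, against 8 and 0, and the genes of G2 and mitosis 14 and 1, against 10 and 1. In each of these lists the higher genes still outnumbered the lower.

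**Figure D5:**
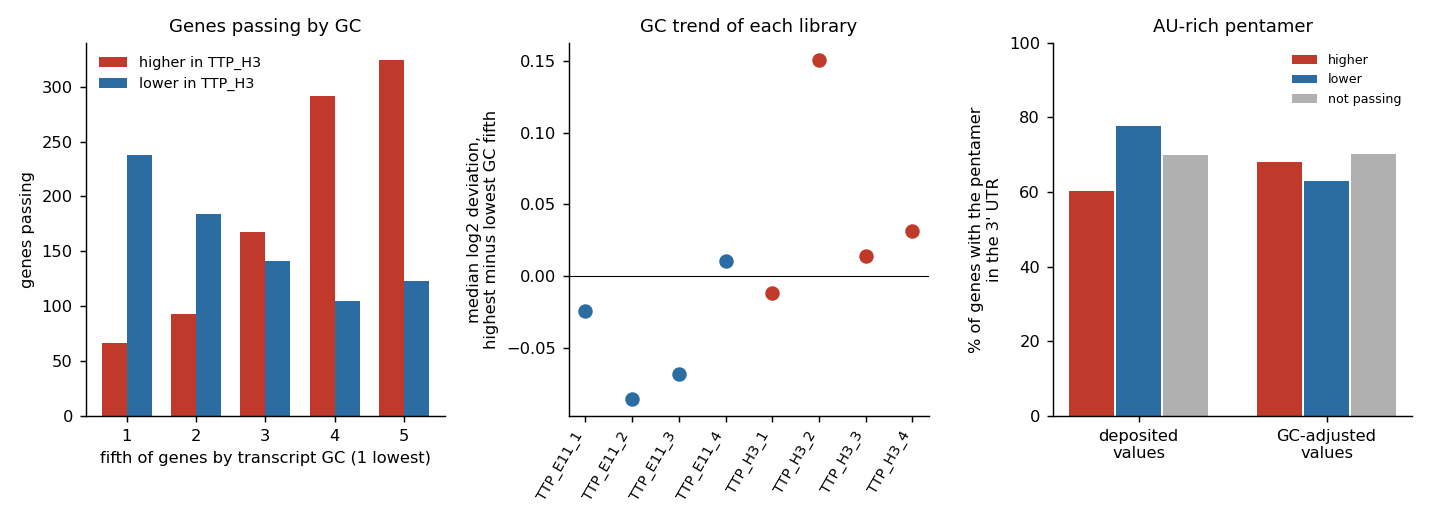
Left, genes that passed in each of 5 equal bins of transcript GC content. Middle, median log2 deviation of the highest minus the lowest bin in each of the 8 TTP libraries, with replicate 2 of H3 at 0.151. Right, percent of genes with ATTTA in the 3′ UTR among those higher, lower and not passing, at 60.3% and 77.8% with deposited values and 67.9% and 63.0% with GC-adjusted values.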

How the data were processed

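Per the labels' protocols, RNA of 16 cultures was sequenced from libraries of the NEBNext Ultra II kit. Tools and build named by the submitters' processing notes are Trimmomatic 0.36, STAR 2.5.2b, Subread 1.5.2 with its featureCounts, DESeq2 and GRCh38. Neither annotation nor strand setting is given in the sources used here. The deposited values behave as a signal made by the authors, gene counts scaled by a size factor, since 100% of them were multiples of the worth of 1 read, whole within 0.001, a weaker check in replicates 1 and 3 of H3, where 1 read is worth close to 1. The deposited fold changes and p-values were not used. The smallest mean over the 16 libraries was 9.68, and no gene with a lower mean is listed.

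Groups were taken from library names. limma 3.58.1 (R 4.3.3) was fitted with robust trend to log2(value + 1) of all libraries and 4 clone groups, because the table holds no raw counts, and p-values were adjusted by Benjamini-Hochberg over 14857 genes. The recovered reads tested with DESeq2 1.42.0 and with edgeR 4.0.16 (quasi-likelihood), different scalings, pseudocounts of 0.1 and 5, filters on the mean at 20 and 50, the 8 TTP libraries alone, a replicate block and leaving out each of the 8 TTP libraries were alternatives. GC adjustment and leaving out replicate 4 of EV_B were chosen after seeing the data. Tested on simulated data of H3 against E11 (14857 genes, 200 changed), the fit recovered 86% of the 1.5-fold and 98% of the 2-fold changes. The changed genes had a mean of at least 20 and moved alike in all H3 libraries. The simulated data held no deviating library and no GC trend, so the recovery in the real data is not given by them. Members and lists were chosen with earlier results of these data known. A gene can be counted in several lists, as CXCL8, BTG2 and CTGF were. Named genes were the ZFP36 family, the 15 highest and 15 lowest log2 differences among genes that passed with and without replicate 3 of H3, did not overlap and had a mean of at least 20 in the higher clone, up to 4 passing members of each list, and the 5 genes in each direction in which replicate 3 deviated most at a mean of at least 100. Those the text does not need are left out, and some are not reported here. Counting intervals are exact at 95% and cover counting error only. GENCODE 29 (GRCh38) gave positions for 14820 genes and 3′ UTRs for 12485, 1 transcript per gene.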

Additional observations from a re-analysis of the deposited data

Results flagged for a closer look

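In each clone the 4 libraries of every gene named in the text were examined for 1 library far from the other 3, by the gap to its neighbour as a share of the whole range. Of 248 groups of 4 libraries, 29 had such a library, where chance flags about 1 in 20 groups, and in 20 of the 29 it was replicate 3 of H3. These numbers are partly fixed by choice, because the genes named include 10 chosen for how far that library deviated, which give 9 of the 20. Without these 10 genes, 20 of 228 groups had such a library, replicate 3 of H3 in 11 of them. Replicate 3 of H3 was the low library for CDH11 at 755 normalized counts, F3 at 2814, WT1 at 49.9, AC245041.1 at 19.0, AC245041.2 at 95.8, COL6A3 at 90.8 and CEMIP at 203. It was the high library for GRAMD1B at 113, CPNE7 at 191, CPVL at 314, GLB1L2 at 36.9, OAS3 at 899.8, RRM2 at 3513, IGHVIII-13-1 at 0.998 (1 read, with 0 in the other 3), CXCL8 at 50.9, PDE1C at 177, CD22 at 533, KISS1 at 4275, LCP1 at 1351 and GALNT14 at 329.

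The other 9 were spread over 6 libraries. In E11, NXF3 had its 1 read in replicate 1, at 1.25, and NFATC4 was low in replicate 2, at 47.1. CPVL was high in replicate 3 of E11, at 34.9, PPP1R15A low in it, at 2560.2, and FXR2 high in replicate 4, at 1971. In H3, IGKC was low and PAX8 high in replicate 2, at 369 and 329, and GMFG and LAMA4 were low in replicate 4, at 2.71 and 34.3. In LAMA4, IGKC, FXR2, PPP1R15A, CPVL, NFATC4, NXF3 and GMFG the libraries of the clones did not overlap with these included.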

How the results depend on the processing

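On the recovered reads edgeR called 1039 genes higher and 827 lower and DESeq2 975 and 815, and with TMM scaling the counts were 960 and 778. Over leaving out each of the 8 TTP libraries or replicate 4 of EV_B the number of higher genes was between 631 and 1205 and of lower genes between 487 and 1056, the lower genes falling to 487 without replicate 2 and 522 without replicate 3 of E11. Starting without replicate 3 of H3, the counts were between 752 and 1514 and between 667 and 1337, and 752 higher and 667 lower genes were left when replicate 2 of H3 was also left out. These fits hold fewer libraries, and another cause was not tested. ZFP36 stayed higher in H3 in all settings run, with a log2 difference between 0.43 and 0.49 over these left-out libraries, and EV_B against EV_A gave between 4808 and 6006 genes. Without replicate 3 of H3, AC245041.1 (0.49), COL6A3 (0.57) and CD22 (-0.31) had the opposite sign from the fit with all libraries. Over the left-out libraries they were between -0.63 and 0.49, between -0.23 and 0.57 and between -0.31 and 0.24.

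No label says whether the replicate numbers pair the cultures. Deviations of same-numbered libraries had correlations between -0.05 and 0.03 across genes. That shows no shared effect of the number, but cannot show how the cultures were handled. With a replicate block 920 genes were higher and 768 lower, and of the 124 named genes PAX8 was the 1 that lost its call. With the 8 TTP libraries alone 803 genes were higher and 656 lower, and 5 of the 124 named genes lost their call. Without replicate 3 of H3 the counts of that fit were 1432 and 1299. EV_B against EV_A cannot be given from the 8 TTP libraries alone. TMM scaling, other size factors over the TTP libraries and a pseudocount of 5 changed no call of the 124. Depth limits genes near the floor: 1 read is about 1 normalized count, so genes such as NXF3 or IGLC3 rest on few reads in their lower clone.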

Other observations

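Other signalling pathways had members that passed, beside 6.35% higher and 5.32% lower over all genes. Of 37 genes of the TGF-beta pathway 3 were higher and 3 lower in H3 (8.11% and 8.11%), and 7 and 4 without replicate 3 of H3. FST (follistatin), which binds and blocks activins, stood at 1537, 1505, 1516 and 1508 in E11 and 1139.5, 1036, 805 and 985 in H3 (log2 difference -0.62 ± 0.11, adjusted p = 0.00258). The coreceptor TGFBR3 was higher in H3, at 291 ± 11.7 against 229.8 ± 24.7 in E11. Of 21 targets of YAP and TEAD 2 were higher and 5 lower (9.52% and 23.8%), and 4 and 4 without replicate 3. Among them F3 (tissue factor), which starts blood coagulation, rose from 2789.7, 2631, 2701 and 2583 in E11 to 3510.4, 3455, 2814 and 3403 in H3, below 6230.1 ± 52.8 in EV_A and 6689.6 ± 59.4 in EV_B. Of 25 p53 targets 1 was higher and 3 lower (4% and 12%), with CCNG1 (cyclin G1) at 865 ± 14.2 in E11 and 670.0 ± 101 in H3 and PHLDA3 at 406 ± 22.6 and 336 ± 18.5. Of 31 genes of the Wnt pathway 2 were higher and 1 lower (6.45% and 3.23%), and the receptor FZD1 was higher by 0.23 on the log2 scale. Of 21 of the Notch pathway 1 was higher and 0 lower (4.76% and 0%), and 3 and 0 without replicate 3. Of 14 EGF receptors and ligands 3 were higher and 2 lower (21.4% and 14.3%), the ligand TGFA rising from 659.7 ± 18.7 to 744 ± 19.0.

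Of 27 genes of the integrated stress response 2 were higher and 3 lower (7.41% and 11.1%), with PPP1R15A (GADD34), which reverses the translational block, at 2651, 2651, 2560.2 and 2666 in E11 and 3082, 3177, 3257 and 3044 in H3, and the asparagine synthetase ASNS at 1364, 1444, 1424 and 1579 and 1134, 1015, 1272 and 1196. These moved in opposite directions without overlap between the clones. Of 27 genes of the unfolded protein response 4 were higher and 1 lower (14.8% and 3.7%), the chaperone HSPA5 (BiP) by 0.15. Of 21 NRF2 targets 3 were higher and 0 lower (14.3% and 0%), and OSGIN1 was higher by 0.43. Of 20 genes of antigen presentation by class I molecules 3 were higher and 0 lower (15% and 0%), and the peptide transporter TAP1 was higher by 0.18. Of 9 of class II 0 passed with limma, edgeR or DESeq2, and 0 had an unadjusted limma p under 0.05. Of 15 integrins 2 were higher and 2 lower (13.3% and 13.3%), ITGA3 rising from 26931 ± 463 to 30235 ± 1900.3 and ITGB8 falling from 148 ± 6.57 to 106 ± 15.8. Of 31 death receptors and caspases 3 were higher and 1 lower (9.68% and 3.23%), and of 17 ABC transporters 1 and 1 (5.88% and 5.88%). Of 14 S100 proteins 1 was higher and 0 lower (7.14% and 0%), and 3 and 0 without replicate 3. Of 10 HOX genes 1 was higher and 0 lower (10% and 0%), while 0 passed with edgeR or DESeq2. Of 9 keratins 1 and 0 passed (11.1% and 0%), and of 8 luminal breast markers 1 and 0 (12.5% and 0%). Each of these counts was 2 and 0 without replicate 3, and 0 and 0 with GC-adjusted values.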
